A study of Mus musculus with 6 samples.

Results

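Genes that make, sense and move cholesterol were compared between whole ovaries of wild-type (WT) mice and of FORKO mice, in which all variants of the receptor for follicle-stimulating hormone were deleted. The group was fixed by name as 30 genes. Of these, 21 were listed under cholesterol and isoprenoid synthesis, counting the thiolases Acat1 and Acat2. Another 5 sense sterols, and 4 act in transport and storage. Of the 30 genes, 28 had a probe set that the platform annotation assigned to exactly 1 gene, out of 18193 genes with such a probe set in all; Acat2 and Soat1 were not analysed here. Each gene was read from its brightest probe set, by mean signal over the 6 arrays. The groups were 3 WT and 3 FORKO samples of females aged 8 months, bred from heterozygotes on the 129T2 svEmsJ background, with both ovaries pooled. The labels name no cell type to which the deletion was restricted, and whole ovary holds follicles, stroma, vessels and epithelium together. The labels call the samples biological replicates without saying how many mice stand behind each, so p-values speak only of the spread between these 6 samples. Titles and the genotype field place each sample in its group, although the description field of the FORKO samples speaks of wild-type mice.

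Animal cells build cholesterol from acetyl-CoA through mevalonate, farnesyl diphosphate, squalene and lanosterol, and a series of membrane enzymes then trims lanosterol to cholesterol. When sterols in the endoplasmic reticulum fall, SCAP carries the SREBP transcription factors to the Golgi, where they are cut and released to switch on these genes, and INSIG proteins hold SCAP back when sterols are plentiful. The ovary needs cholesterol for membranes and as the substrate of all its steroid hormones, and in rodents it takes much of it from lipoproteins.

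RNA of each sample was read on an Affymetrix Mouse Genome 430 2.0 array. Values below are MAS5 signals scaled to a common trimmed mean (factors 0.895 to 1.09). A log2 change is the FORKO mean less the WT mean of log2(signal + 5.73); the added constant shrinks the changes of dim genes. Arrays give no counts, and their number limits the precision. Fshr, the deleted gene, read 59.4 to 118.8 on the WT arrays and 1.2 to 11.7 on the FORKO arrays; where its probe set lies relative to the deletion was not given in the sources used here. FORKO replicate 1 stood apart from the other arrays. The summed signal of 9 granulosa cell markers was 6152 there. It was 15315 and 16200 in FORKO replicates 2 and 3 and 12988 to 16949 in WT. The sum of 8 macrophage markers was 5078 there, 1964 and 2542 in FORKO replicates 2 and 3, and 2017 to 2130 in WT. Adgre1, Cd14 and Gpnmb were above WT on every FORKO array, and the other tested macrophage markers overlapped between the groups. The granulosa sum follows its brightest genes, such as Inhba (54.2 on FORKO replicate 1, 2046 to 4332 in WT), and its members differed. Foxl2 and Amhr2 read 849.5 and 2840.5 there, above every WT array (626 to 810 and 1550 to 1745). Nr5a2 was below WT on every FORKO array (207 to 766.5 against 1636 to 1928). Oocyte markers (8 genes) summed to 375 to 587 in FORKO and 1092 to 1245 in WT. Surface epithelium markers (7 genes) summed to 1344 to 2271 in FORKO and 736 to 815 in WT. Theca and interstitial markers (4 genes) summed to 9167 to 10870 in FORKO and 12319 to 12858 in WT. Of these 4, Cyp11a1 and Hsd3b1 were lower on every FORKO array. Cyp17a1 (306.9 to 2477.2 in FORKO, 172.9 to 1187.5 in WT) and Ephx2 overlapped between the groups. Luteal markers (4 genes) summed to 3474 to 5644 in FORKO and 5687 to 7285 in WT. Fdx1 was the largest part of these sums (2812 to 3278 in FORKO, 4510 to 4816 in WT). Akr1c18 and Ptgfr, much dimmer, were also lower on every FORKO array, and Sgk1 overlapped between the groups. Endothelial markers summed to 824 to 1052 in FORKO and 505 to 643 in WT. Cd34 held most of that gap (418 to 683 against 190 to 249), and Cdh5 and Tek overlapped between the groups. Smooth muscle markers summed to 920 to 2331 in FORKO and 1774 to 2034 in WT, and Acta2 made up most of these sums. The other tested smooth muscle markers, Actg2, Myh11 and Cnn1, were lower on every FORKO array. Oviduct markers summed to 85.7 to 294 in FORKO and 26.8 to 52.6 in WT, and no red blood cell marker was above the filter. The oviduct marker Ovgp1 split the FORKO arrays. It read 27.2 on replicate 1, inside the WT range of 12.7 to 34.4, and 247 and 183.9 on replicates 2 and 3. Wfdc2 was higher on every FORKO array (34.0 to 52.1 against 1.6 to 13.7). Of 5 adipocyte markers measured, Adipoq, Cidec, Lep and Retn were below the filter on dim signals. The ratios of 3' to 5' signal, a sign of RNA quality, overlapped between the groups (β-actin 3.93 to 5.45 in WT and 4.12 to 5.27 in FORKO; Gapdh 5.34 to 9.62 and 5.24 to 8.93). In whole ovary, fewer cells of a type and less RNA per cell cannot be told apart, and the part of these marker differences in the results below was not tested.

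One sterol gene rose in FORKO ovaries in the test over all genes, Tm7sf2, and no sterol gene fell. All 28 genes passed the dim filter, and 1 of them (3.57%) was called higher by limma (adjusted p under 0.05), beside 1.30% of the 11199 genes tested; 0.839% of all genes passed as lower. Of the 28 changes most were above 0, which is given as a description: 20 of the 28 genes (71.4%) had a positive log2 change and 8 a negative one, while 47.4% of all genes had a positive change. The median change was 0.17 for the sterol genes and -0.02 for all genes. For 6 sterol genes (21.4%) the unadjusted limma p was under 0.05 with a higher FORKO mean, against 8.64% of all genes. It was under 0.05 with a lower mean for 1, Acat1. In either direction it was under 0.05 for 7 of the 28 sterol genes and for 1882 of the 11199 genes tested. The 3 FORKO arrays lay above the 3 WT arrays for 4 sterol genes (14.3%; 10.7% of all genes) and below them for none (12.0% of all genes). The count of negative changes moved with the scaling, as it did for all genes. It was 11 of 28 with arrays scaled to the same median (61.4% of all genes), 9 as deposited (57.6%), and 2 with arrays scaled to the bacterial spikes (30.7%), which moved the median of all genes up by 0.17. Without FORKO replicate 1 it was 11 (50.5% of all genes).

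**Figure D1:**
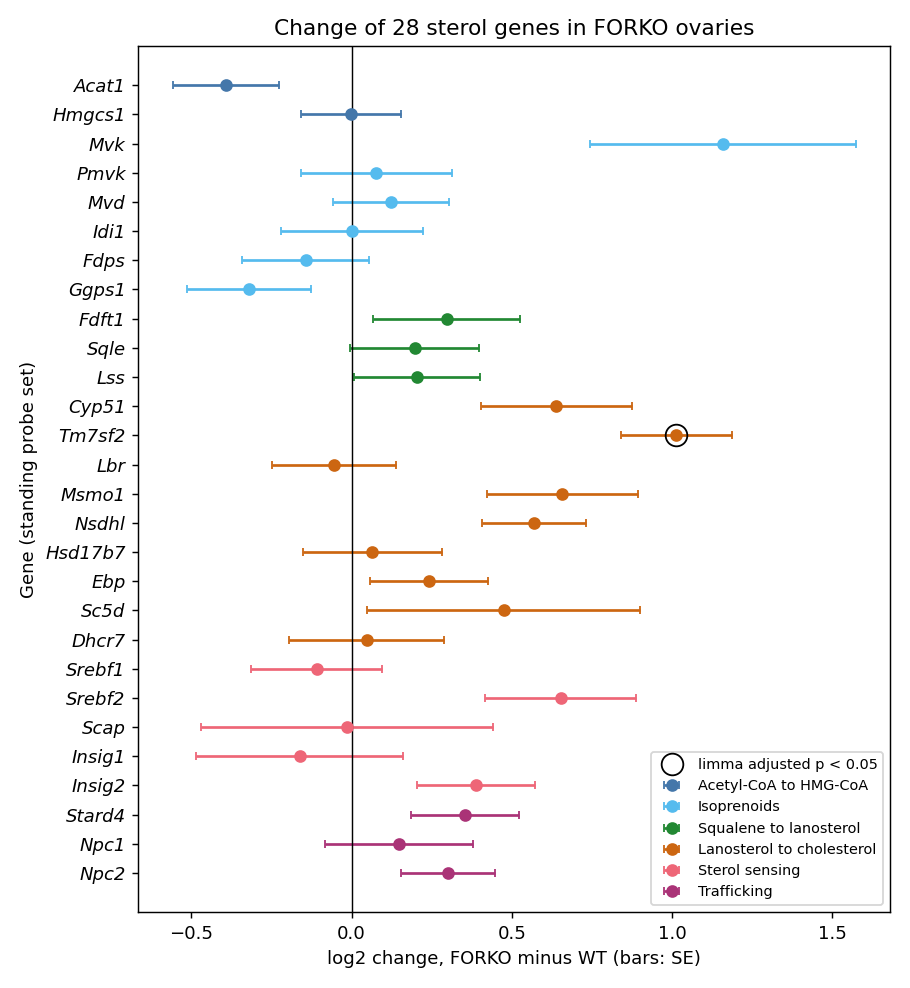
Log2 change (FORKO minus WT, x axis) of each of the 28 sterol genes (y axis), with bars of 1 SE from limma and colours for the pathway step. Tm7sf2, circled, is the gene that passed the test, and the genes between lanosterol and cholesterol hold most of the changes above 0.5.

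The enzymes that turn lanosterol into cholesterol held the one gene that passed, Tm7sf2. The 9 genes of this step had a median change of 0.48; Tm7sf2 rose and 8 did not pass, and 8 of the 9 changes were positive. Medians were 0.21 for the 3 genes from squalene to lanosterol, 0.30 for the 3 transport genes and 0.04 for the 6 isoprenoid genes. They were -0.01 for the 5 sensing genes and -0.20 for the 2 genes listed from acetyl-CoA to HMG-CoA. Those 2 were Acat1, a mitochondrial thiolase, at -0.39 and Hmgcs1 at -0.00. These medians describe small lists and were not tested against each other. With each array left out in turn, the median of the lanosterol to cholesterol step ranged from 0.31 to 0.53. The order of the steps was not fixed: the transport median was the higher of these with the mean of a gene's probe sets (0.40 against 0.35) and without FORKO replicate 3 (0.35 against 0.31).

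Tm7sf2 encodes a sterol reductase that removes the double bond left when CYP51 cuts the methyl group from lanosterol. It read 105, 110 and 113 on the WT arrays and 205, 212 and 268 on the FORKO arrays. All FORKO arrays lay well above all WT arrays, and the WT arrays differed little among themselves. The mean rose from 109 ± 3.69 (SD, n = 3) to 228 ± 34.7 (SD, n = 3), a log2 change of 1.01 ± 0.17 (SE; limma adjusted p = 0.0234). An exact permutation test (two-sided) gave 0.1, and groups of 3 and 3 cannot go lower. It passed with the replicate number as a block as well (limma adjusted p = 0.0182) and without FORKO replicate 1 (0.00616). It did not pass when any other single array was left out: limma's adjusted p was 0.0944, 0.0999 and 0.0884 with WT replicate 1, 2 or 3 left out, and 0.0501 and 0.0858 with FORKO replicate 2 or 3 left out.

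Lbr, the lamin B receptor of the inner nuclear membrane, carries out the same reduction as Tm7sf2, and its signal did not separate the groups. It read 201, 250 and 222 in WT and 267, 212 and 175 in FORKO, with a log2 change of -0.05 (95% interval -0.49 to 0.38; limma adjusted p = 0.933). The change of Tm7sf2 exceeded that of Lbr by 1.07 ± 0.29 (SE) on the log2 scale, and the difference between both genes was larger on each FORKO array than on each WT array (exact two-sided permutation p = 0.1, 0.15 after Benjamini-Hochberg adjustment over 3 pairs of related genes, chosen after their values were seen).

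Nsdhl, a dehydrogenase that acts in the removal of the next methyl groups from the sterol ring, read 163, 177 and 177 in WT and 238, 247 and 292 in FORKO. The groups did not overlap, and the FORKO mean of 259 ± 28.8 (SD, n = 3) lay above the WT mean of 172 ± 8.32 (SD, n = 3). It did not pass over all genes (log2 change 0.57 ± 0.16, SE; limma adjusted p = 0.135, and 0.0854 without FORKO replicate 1). Cyp51, the demethylase of lanosterol, read 362, 199 and 251 in WT and 510, 389 and 353 in FORKO. WT replicate 1 reached into the FORKO range, and the gene did not pass (log2 change 0.64 ± 0.24, SE; limma adjusted p = 0.249). A second Cyp51 probe set gave a change of 0.06, so the size of the difference depended on the probe set read.

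Msmo1, the methylsterol monooxygenase, and Sc5d, the sterol desaturase of a late step, split the FORKO arrays. Msmo1 read 426.5, 429.5 and 507 in WT, and its FORKO replicates 1, 2 and 3 read 479.5, 888 and 867. Sc5d read 384, 227 and 309 in WT and 183, 653 and 612 in FORKO. On the brightest probe set of both genes FORKO replicates 2 and 3 lay above every WT array, while replicate 1 lay among the WT arrays for Msmo1 and below them for Sc5d. With all arrays neither passed (log2 change 0.66 ± 0.24 and 0.48 ± 0.43, SE; limma adjusted p = 0.231 and 0.675). Without FORKO replicate 1 both rose, Msmo1 with a log2 change of 0.95 and Sc5d with one of 1.06 (adjusted p of 0.00605 and 0.0128 by limma). A second Sc5d probe set showed the same split, with 246, 569 and 471 on the FORKO arrays, and did not pass in that fit (limma adjusted p = 0.110). The dimmer second Msmo1 probe set did not show it: it read 90.7, 49.0 and 59.3 in WT and 43.4, 77.4 and 103.7 in FORKO, with FORKO replicate 2 inside the WT range. Its change was 0.13, and 0.45 without FORKO replicate 1 (limma adjusted p = 0.900 and 0.442).

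The other genes of this step differed little between the groups. Ebp, the sterol isomerase, read 290 to 357 in WT and 342 to 477 in FORKO (log2 change 0.24; limma adjusted p = 0.611). Hsd17b7, which reduces the sterol ketone and also acts on oestrone, read 343 to 461 and 326 to 562 (0.06, adjusted p = 0.929, limma). Dhcr7, the dehydrocholesterol reductase that finishes cholesterol, read 105 to 184 and 109 to 167 (0.05, adjusted p = 0.954, limma). Each of these ranges overlapped, and the 95% interval of the Dhcr7 change ran from -0.49 to 0.59. The standing probe sets of Hsd17b7 and Fdft1, and those of Lss and Mvd, are of design types that can also bind other transcripts.

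**Figure D2:**
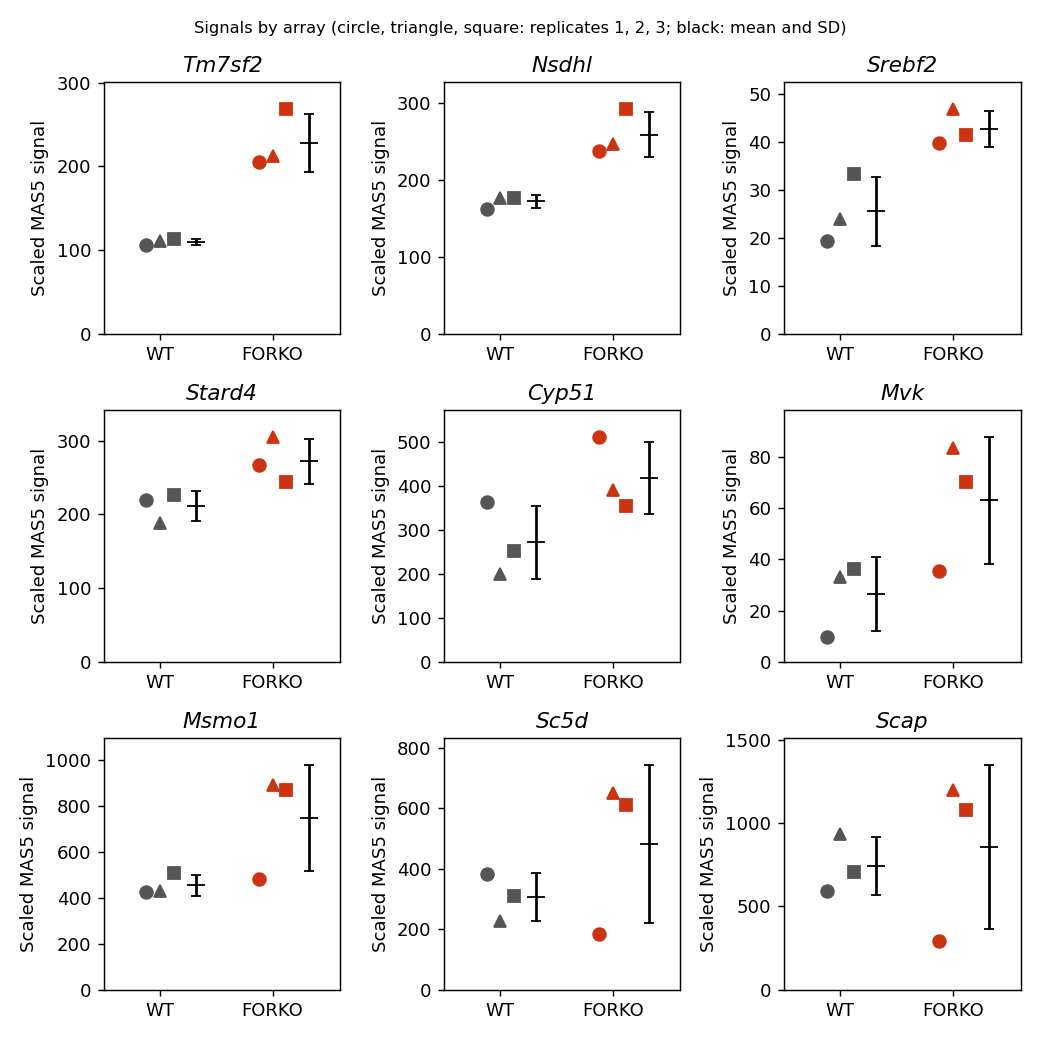
Scaled MAS5 signal (y axis, from 0) of 9 sterol genes on each WT and FORKO array, with replicates 1, 2 and 3 as circle, triangle and square and the mean and SD (n = 3) in black. Tm7sf2, Nsdhl, Srebf2 and Stard4 separate the groups. The circle of FORKO replicate 1 lies far below the other FORKO arrays for Mvk, Msmo1, Sc5d and Scap.

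Promoter sequences of 22 of the 28 genes were matched by symbol in a RefSeq table (GRCm38.p6), which holds the 250 bases before and 50 bases after a start site. They were searched on both strands for TCACNCCAC, a form of the sterol regulatory element bound by SREBP, and for CCAAT and GGGCGG, the motifs of the cofactors NF-Y and Sp1. Acat1, Sqle, Stard4, Npc1, Fdft1 and Fdps had no entry. CCAAT was found for 21 of the 22 genes (95.5%) against 41.1% of the 27025 genes in the table, and GGGCGG for 20 (90.9%) against 38.2%. All 28 sterol genes passed the dim filter, whereas the genes in the table were not limited to those that did. Counted over single promoters, since some genes have several, CCAAT was in 22 of 30 (73.3%) against 37.4% of all promoters. TCACNCCAC was found for Hmgcs1 and for no other of the 22 genes, and for 1.44% of all genes. Elements with other letters or outside these bases were not searched for, so a gene without a match may still hold one. No motif overlapped another in the sequences printed here.

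The 250 bases before the start site are shown for Tm7sf2, which rose, and for Nsdhl and Msmo1. Signals of Nsdhl and Msmo1 were higher on some or all FORKO arrays. Hmgcs1, which holds the TCACNCCAC match but whose fitted change was near 0, is shown as well. Capitals mark the 3 motifs on either strand, and all runs read 5′ to 3′ towards the start site on GRCm38.p6.

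Tm7sf2 (chr19:6067851-6068100, minus strand): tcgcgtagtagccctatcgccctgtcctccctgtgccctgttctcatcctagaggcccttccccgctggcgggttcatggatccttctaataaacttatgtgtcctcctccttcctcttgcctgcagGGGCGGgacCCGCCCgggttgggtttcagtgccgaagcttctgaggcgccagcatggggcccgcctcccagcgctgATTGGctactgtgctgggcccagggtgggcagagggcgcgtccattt
Nsdhl (chrX:72918271-72918520, plus strand): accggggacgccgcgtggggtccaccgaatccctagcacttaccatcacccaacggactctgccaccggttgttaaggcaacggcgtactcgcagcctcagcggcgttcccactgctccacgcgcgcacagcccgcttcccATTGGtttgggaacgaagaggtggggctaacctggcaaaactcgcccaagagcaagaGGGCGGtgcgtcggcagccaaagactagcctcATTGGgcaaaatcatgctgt
Msmo1 (chr8:64733579-64733828, minus strand): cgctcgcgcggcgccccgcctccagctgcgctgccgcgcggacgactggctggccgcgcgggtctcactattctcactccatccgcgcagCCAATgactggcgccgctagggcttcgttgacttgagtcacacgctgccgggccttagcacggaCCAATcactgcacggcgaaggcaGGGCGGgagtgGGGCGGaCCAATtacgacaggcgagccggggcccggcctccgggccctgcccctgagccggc
Hmgcs1 (chr13:119690101-119690350, plus strand): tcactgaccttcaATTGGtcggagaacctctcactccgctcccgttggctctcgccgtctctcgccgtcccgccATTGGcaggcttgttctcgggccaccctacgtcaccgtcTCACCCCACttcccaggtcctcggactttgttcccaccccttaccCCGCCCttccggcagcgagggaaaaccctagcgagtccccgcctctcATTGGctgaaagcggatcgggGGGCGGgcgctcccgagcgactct

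Tm7sf2 holds 1 CCAAT match, on the opposite strand 43 to 47 bases before the start site, with a pair of GGGCGG matches farther out. Msmo1 holds 3 CCAAT and 2 GGGCGG matches, and Nsdhl 2 and 1. Hmgcs1 holds the TCACNCCAC match 129 to 137 bases before the start site, with CCAAT matches on either side of it. A match is a run of letters and not a measured binding site.

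Neither gene listed from acetyl-CoA to HMG-CoA passed. Hmgcs1, the synthase of HMG-CoA, read 3359, 3309 and 2718 in WT and 3500, 2554 and 3368 in FORKO. Its log2 change was -0.00 with a 95% interval of -0.35 to 0.35 (limma adjusted p = 0.998). Its other 4 probe sets gave changes from -0.15 to 0.23. Acat1, a mitochondrial thiolase that serves ketone body use, read 2554, 1845 and 2080 in WT and 1924, 1461 and 1536 in FORKO. Its signal on FORKO replicate 1 overlapped with WT. Its change was -0.39 ± 0.17 (SE; limma adjusted p = 0.311), and its other 2 probe sets gave -0.44 and -0.44. On one of these, all FORKO arrays (1058 to 1172) lay below all WT arrays (1426 to 1659), and it did not pass either (limma adjusted p = 0.153).

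Among the isoprenoid genes, Mvk, the mevalonate kinase, had the largest fitted change of all 28 genes but a dim and variable signal. It read 9.7, 33.3 and 36.1 in WT and 35.6, 83.4 and 70.2 in FORKO. FORKO replicate 1 lay within the WT range and WT replicate 1 far below the other WT arrays. The log2 change of 1.16 ± 0.42 (SE) did not pass (limma adjusted p = 0.231). It passed with the replicate number as a block (limma adjusted p = 0.0365) and without FORKO replicate 1 (0.0428, log2 change 1.49). The second Mvk probe set gave 0.56 with no overlap of the groups and did not pass (limma adjusted p = 0.361).

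The remaining isoprenoid genes had small changes. Pmvk and Mvd, which finish isopentenyl diphosphate, read 107 to 126 and 55.7 to 64.0 in WT and 89.1 to 173 and 57.9 to 69.7 in FORKO (log2 change 0.08 and 0.12). Idi1, the isomerase of that unit, read 498 to 707 and 428 to 729 (0.00). Fdps, which makes farnesyl diphosphate, read 116 to 163 and 104 to 136 (-0.14), and Ggps1, which makes geranylgeranyl diphosphate for protein prenylation, read 79.5 to 92.6 and 60.1 to 83.5 (-0.32). None of these 5 passed, with limma adjusted p values of 0.504 to 0.998.

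On their brightest probe sets, the enzymes from squalene to lanosterol were highest on FORKO replicate 1. Fdft1, the squalene synthase that commits the pathway to sterols, read 900, 633 and 647 in WT and 1228, 693 and 806 in FORKO. Sqle, the squalene epoxidase, read 336, 274 and 304 in WT and 463, 312 and 294 in FORKO. Lss, the lanosterol synthase, read 159, 135 and 111 in WT and 184, 140 and 144 in FORKO. The groups overlapped for all 3 genes on these probe sets, and the step's median against WT was 0.60 on FORKO replicate 1 but 0.04 and 0.10 on replicates 2 and 3. The log2 changes of 0.30, 0.20 and 0.21 did not pass (limma adjusted p = 0.621, 0.724 and 0.701) and were 0.06, -0.00 and 0.09 without FORKO replicate 1. A second Fdft1 probe set read 444.5, 365 and 376 in WT and 792.5, 562 and 447 in FORKO, where the groups did not overlap. Its change was 0.56, and 0.34 without FORKO replicate 1, and it did not pass (limma adjusted p = 0.262 and 0.389). A dimmer second Lss probe set was lowest in FORKO on replicate 1. It read 42.0, 26.1 and 46.1 in WT and 37.1, 38.6 and 66.9 in FORKO (change 0.27, limma adjusted p = 0.732).

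**Figure D3:**
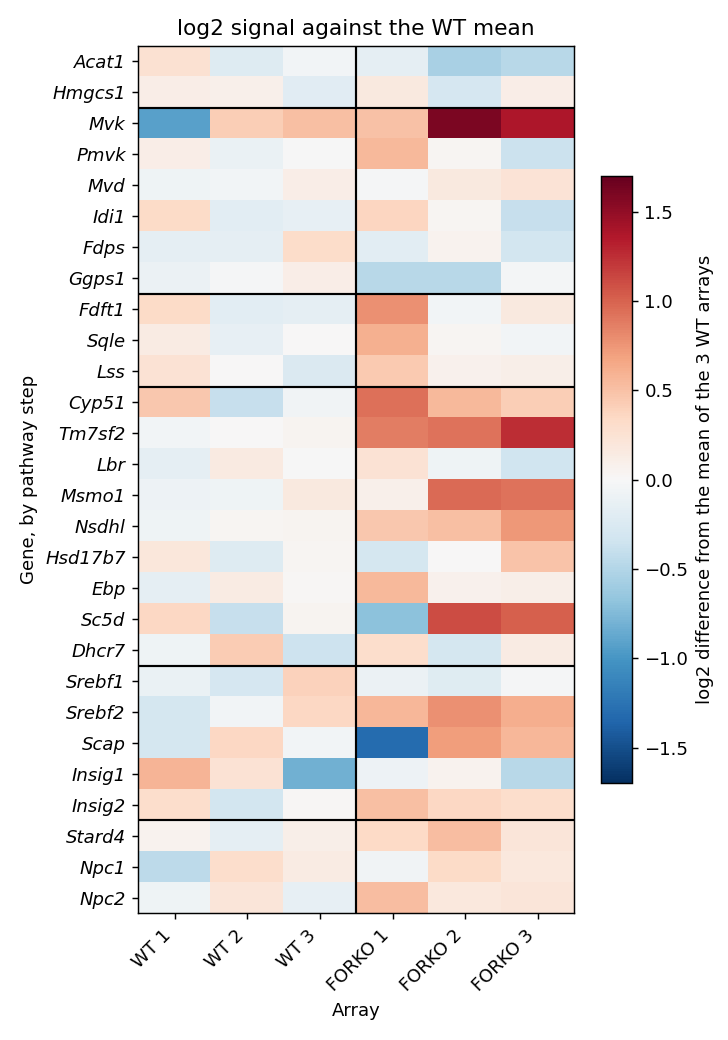
Log2 signal of the 28 genes (rows, by pathway step) on the 6 arrays (columns) as the difference from the mean of the 3 WT arrays, red for higher and blue for lower. FORKO replicate 1 is the reddest array for Fdft1, Sqle and Lss (step median 0.60) and is blue for Sc5d and Scap, where replicates 2 and 3 are red.

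None of the 5 sensing genes passed. Srebf2, the SREBP that mainly drives cholesterol synthesis, read 19.3, 24.0 and 33.4 in WT and 39.8, 46.9 and 41.6 in FORKO. All FORKO arrays lay above all WT arrays, at a signal near the dim filter of 20.4 (log2 change 0.65 ± 0.24, SE; limma adjusted p = 0.236). Its second probe set had a change of 0.18 and overlapped between the groups. Srebf1, the SREBP linked more to fatty acid synthesis, read 170, 151 and 244 in WT and 171, 159 and 182 in FORKO (-0.11 ± 0.20, SE; limma adjusted p = 0.861). The FORKO arrays all lay within the WT range. The change of Srebf2 exceeded that of Srebf1 by 0.76 ± 0.16 (SE), with no overlap of the per-array differences (exact two-sided permutation p = 0.1, 0.15 after Benjamini-Hochberg adjustment). It was 0.29 with the probe set chosen by its lowest array.

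Scap, the escort of the SREBPs, read 590.2, 933 and 703 in WT, and its FORKO replicates 1, 2 and 3 read 290.5, 1195 and 1076. FORKO replicate 1 was below every WT array and the other FORKO arrays were above every WT array. The log2 change of -0.01 ± 0.45 (SE; limma adjusted p = 0.993) is the mean of these opposed values. Without FORKO replicate 1 the change was 0.63 and did not pass (limma adjusted p = 0.105). The dimmer second probe set showed the same order, with 29.5 to 39.4 in WT and 23.0, 69.0 and 58.8 in FORKO. Scap and Sc5d were the 2 of 28 genes (7.14%) whose signal on FORKO replicate 1 differed by over 1 log2 unit from the mean of replicates 2 and 3. The same gap was seen for 8.20% of all genes.

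Insig1 and Insig2 encode the retention proteins, and Insig1 is itself a target of the SREBPs. Insig1 read 447, 354 and 167 in WT and 282, 311 and 215 in FORKO. The FORKO arrays fell inside the wide WT range (log2 change -0.16 ± 0.32, SE; limma adjusted p = 0.870). Insig2 read 541, 351 and 446 in WT and 630, 565 and 541 in FORKO, with FORKO replicate 3 just below WT replicate 1 (0.39 ± 0.18, SE; limma adjusted p = 0.372). Its 3 probe sets disagreed. The second had a change of 0.04, and the third read 226, 244 and 197 in WT and 161, 178 and 165 in FORKO, so that all FORKO arrays were lower there (-0.39; limma adjusted p = 0.317). The changes of Insig2 and Insig1 differed by 0.55 ± 0.45 (SE; exact two-sided permutation p = 0.4).

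**Figure D4:**
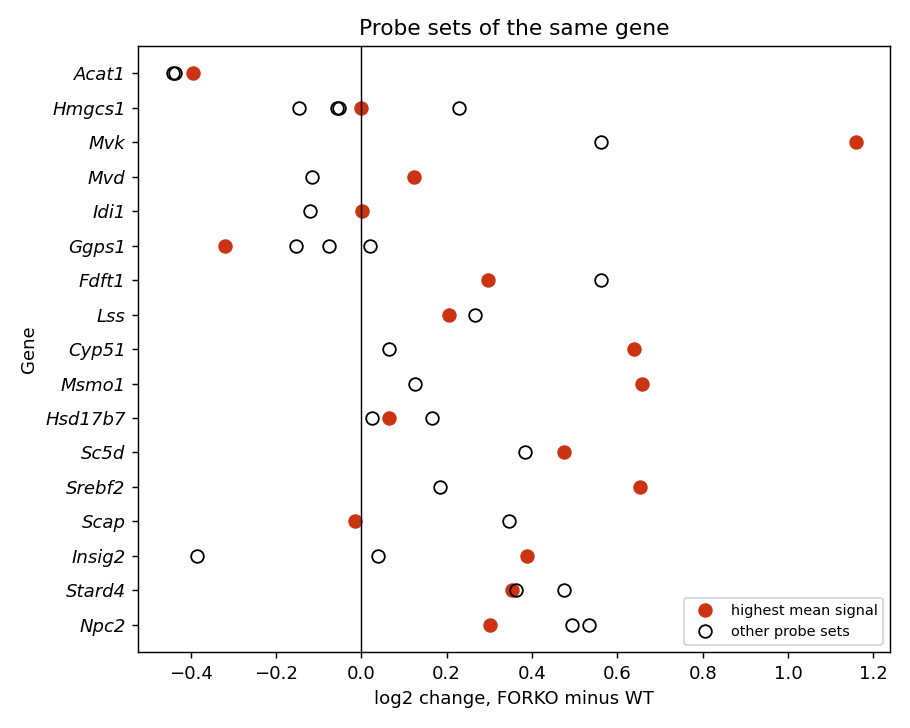
Log2 change (FORKO minus WT, x axis) of every probe set past the dim filter for the 17 sterol genes (y axis) that have more than 1, with the brightest probe set filled. The probe sets of Insig2 spread from -0.39 to 0.39, while all 3 of Npc2 and all 3 of Stard4 are above 0.

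Transport genes had positive changes, and none passed. Stard4, a soluble carrier that moves cholesterol between membranes and is a target of SREBP-2, read 220, 189 and 226 in WT and 268, 304 and 244 in FORKO. The groups did not overlap (log2 change 0.35 ± 0.17, SE; limma adjusted p = 0.374), and its other 2 probe sets had changes of 0.36 and 0.48. Npc2, the small lysosomal protein that hands cholesterol to NPC1, read 2570, 3117 and 2438 in WT and 3861, 3059 and 3096 in FORKO. WT replicate 2 overlapped with the FORKO arrays there (0.30 ± 0.15, SE; limma adjusted p = 0.388). On a second probe set of nearly equal brightness Npc2 read 2406, 2346 and 2382 in WT and 3064, 3178 and 3871 in FORKO, without overlap (0.49 ± 0.13, SE; limma adjusted p = 0.104, and 0.0531 without FORKO replicate 1). Npc1, the lysosomal membrane protein that exports cholesterol, read 57.2 to 100.1 in WT and 76.8 to 101.5 in FORKO (0.15; limma adjusted p = 0.836).

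Probe sets of the same gene mostly agreed in sign. The 28 genes had 63 probe sets, of which 27 besides the standing ones passed the dim filter, in 17 genes. Of these 27, 21 had the sign of the standing probe set, 6 had the opposite sign, and 0 passed limma's test. Tm7sf2, Nsdhl, Sqle, Pmvk, Lbr, Ebp, Dhcr7, Srebf1, Insig1 and Npc1 had a single probe set, so the rise of Tm7sf2 rests on 1.

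Leaving out FORKO replicate 1 raised the number of sterol genes that passed to 4 (14.3%), all higher: Tm7sf2, Msmo1, Sc5d and Mvk. In that fit 3.19% of all genes passed as higher. With the replicate block 2 passed (7.14%), Tm7sf2 and Mvk, against 2.40% of all genes as higher. With any other single array left out, none of the 28 passed.

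Other genes around the pathway were read from 6 lists. None of 8 further genes of sterol synthesis and SREBP control passed, with a median change of -0.02; the largest were Tmem97, a sterol-binding membrane protein, at -0.74 and Pgrmc1, a haem-binding partner of sterol enzymes, at 0.24 (limma adjusted p = 0.286 and 0.483). Of 16 further genes of cholesterol transport and hydrolysis none passed, with a median of 0.25. Stard5, a cytosolic sterol carrier, read 129, 130 and 100 in WT and 409, 212 and 184 in FORKO, without overlap (log2 change 1.05; limma adjusted p = 0.110). Star, which brings cholesterol into mitochondria for steroid synthesis, read 742, 1977 and 1263 in WT and 543, 804 and 682 in FORKO, where FORKO replicate 2 overlapped with WT replicate 1 (-0.87; limma adjusted p = 0.227). Both passed with the replicate block (limma adjusted p = 0.0412 and 0.0418), and Stard5 also with spike scaling (0.0403).

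Of 6 oxysterol and LXR genes, Cyp27a1, the sterol hydroxylase that makes an oxysterol and starts a route of bile acid synthesis, rose, and 5 did not pass. It read 101, 66.0 and 72.2 in WT and 291, 207 and 202 in FORKO, with every FORKO array well above every WT array (log2 change 1.49 ± 0.22, SE; limma adjusted p = 0.0143). It did not pass without WT replicate 2 (0.0749) or WT replicate 3 (0.0678, limma adjusted p). None of 8 genes of isoprenoid use passed, with a median of -0.20; the largest were Pggt1b, a subunit of a protein prenyltransferase, at -0.29 and Pdss2, of ubiquinone synthesis, at -0.27. None of 5 genes of acetyl-CoA supply and ketone bodies passed, the largest being Oxct1, of ketone body use, at -0.45 and the citrate carrier Slc25a1 at 0.30.

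Of 11 genes of fatty acid synthesis and desaturation known as SREBP-1 targets, Scd1, the stearoyl-CoA desaturase, rose, and 10 did not pass, with a median of -0.00. Scd1 read 269, 499 and 401 in WT and 1030, 828 and 763 in FORKO (log2 change 1.19 ± 0.23, SE; limma adjusted p = 0.0368). It did not pass with arrays scaled to the same median, without the dim filter or without the intensity trend (limma adjusted p = 0.0725, 0.0601 and 0.0666), nor without any single array other than FORKO replicate 1 (0.0589 to 0.116). With the mean of its probe sets the change was 0.66 (limma adjusted p = 0.155). The desaturases Fads1 and Fads2, named after their values were seen, also read higher on every FORKO array: 624 to 794 in WT against 1159 to 2496, and 113 to 343 against 480 to 1329. Neither passed (limma adjusted p = 0.0651 and 0.104), and both passed with the replicate block (0.0190 and 0.0113). Fads1 also passed without FORKO replicate 1 or 2 (limma adjusted p = 0.0146 and 0.0456), as deposited (0.0245) and with spike scaling (0.0155), and Fads2 with spike scaling (0.0443). Fasn and Acaca, the synthase and carboxylase of the same pathway, had log2 changes of -0.23 and -0.19 and did not pass (limma adjusted p = 0.610 and 0.662). Acaca read lower on every FORKO array, 93.8 to 100.2 against 108 to 117 in WT. Me1 and Gpam of this list did so too, with 1673 to 2256 against 2500 to 3561, and 1259 to 2765 against 2880 to 3073. Their log2 changes of -0.59 and -0.50 did not pass (limma adjusted p = 0.133 and 0.432). Fasn, Acaca, Me1 and Gpam were also named after their values were seen.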

How the data were processed

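Whole ovaries were profiled on 6 arrays, 1 per sample. The authors deposited MAS5 signals, a linear intensity for each probe set, per the submitters' processing notes. Their scaling target and detection calls were not used here. The arrays did not share a trimmed mean (80.6 to 98.4), so each was scaled to 1 mean after trimming 2% at each end. The pooled 25th percentile, 5.73, was added before log2. After 64 control probe sets were dropped, those with a mean scaled signal of 20.4 or more, the median of all means, were tested (22506).

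Two-sided tests used limma 3.58.1 (R 4.3.3), fitted with lmFit and with eBayes allowing for an intensity trend, over all probe sets, with Benjamini-Hochberg adjustment over all of them and a threshold of 0.05. The script was tested on simulated data. Figures were drawn with matplotlib 3.10.9. Genes were named from probe sets with a single symbol in the platform annotation, and 34754 of these matched the GRCm38.p6 gene table. Named were the 28 genes, Fshr, and in each other list up to 4 genes that passed, or the 2 largest changes where none did. Fads1, Fads2, Fasn, Acaca, Me1, Gpam and the marker genes lie outside this rule.

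The sterol genes, lists and tests were chosen with earlier results of these data known. Both groups carry replicate numbers 1 to 3. After subtracting group means, arrays with the same number had correlations of 0.195, 0.134 and 0.358, all above 0.1, the cut set for fitting the block. The labels state no pairing. These deviations sum to 0 within each group, so the correlations are not independent, and whether they exceed chance was not tested. The main design has no block. No arrays held identical values (0 pairs). Alternatives changed the scaling, pseudocount, dim filter, variance model, block, standing probe set and each array in turn.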

Additional observations from a re-analysis of the deposited data

How the results depend on the processing

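Tm7sf2 passed under every scaling, pseudocount, filter, variance model, block and probe set rule tried, and in 1 of the 6 fits that left out an array. The WT signals of Mvk and Srebf2 lay near the filter of 20.4, which limits their precision. Where values below differ from those reported, the cause was not tested, except that leaving out an array leaves fewer samples.

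With each array left out in turn, probe sets passing ranged from 62 to 864 (372 with all arrays; 62 without WT replicate 2, 864 without FORKO replicate 1), sterol genes passing from 0 to 4, and genes of the other pathway lists passing from 0 to 3 (2 with all). Step medians then ranged from 0.31 to 0.53 for lanosterol to cholesterol, -0.14 to 0.14 for isoprenoids and -0.061 to 0.33 for sensing. With the replicate block 691 probe sets, 2 sterol genes and 6 other list genes passed; it added the calls of Mvk, Stard5, Star, Fads1 and Fads2 and changed no other call named here. Scaling to the bacterial spikes gave 594 probe sets, 5 other list genes, 2 negative sterol changes, a sterol median of 0.34, and medians of 0.65 for lanosterol to cholesterol and 0.48 for transport. Without the dim filter 221 probe sets passed. Other list genes passing came to 1 without the filter, without the intensity trend, with arrays scaled to the same median and with the mean of a gene's probe sets. The transport median was 0.23 at the same median and 0.40 with the mean of probe sets, which gave 0.35 for lanosterol to cholesterol.

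Of the sterol genes that did not pass, 12 turned sign in some setting. Idi1 was -0.038 as deposited, -0.073 at the same median and -0.059 with the mean of probe sets. At the same median Hsd17b7 was -0.011 and Dhcr7 -0.025. With quantile normalization Hmgcs1 was 0.067 and Scap 0.015. With spike scaling Hmgcs1 was 0.17, Scap 0.16, Fdps 0.024, Lbr 0.12, Srebf1 0.060 and Insig1 0.0097. Scap was 0.17 with the mean of probe sets. With each array left out in turn, changes ranged from -0.18 to 0.20 for Idi1, -0.14 to 0.24 for Hsd17b7, -0.13 to 0.26 for Dhcr7, -0.0997 to 0.14 for Hmgcs1, -0.38 to 0.63 for Scap, -0.24 to 0.011 for Fdps, -0.21 to 0.0897 for Lbr, -0.25 to 0.088 for Srebf1, -0.57 to 0.12 for Insig1, -0.076 to 0.30 for Npc1, -0.16 to 0.30 for Pmvk and -0.0043 to 0.32 for Sqle.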
